A study of Mus musculus with 16 samples.

Results

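The ribosome biogenesis genes described here are 45 mouse genes for nucleolar processing of pre-ribosomal RNA, assembly of the ribosomal subunits and transcription by RNA polymerase I, together with Myc. They were taken by symbol from a count table of 56748 genes, and all 45 were found and passed the filter on low counts. By role, 17 act in assembly of the large subunit and 11 in assembly of the small subunit. For small nucleolar ribonucleoproteins (snoRNPs), 4 belong to box C/D particles and 5 are grouped with box H/ACA particles. Among these 5 is Nolc1, a chaperone of snoRNPs. A further 4 are abundant nucleolar proteins, and 3 are subunits of RNA polymerase I. The remaining gene is Myc.

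The counts come from RNA-Seq of TM4 cells, a Sertoli-like mouse cell line, harvested 24 h after transfection with 2.5 µg of plasmid. The plasmid was the empty vector pcDNA3.1-HA (EV, n = 6), a gdf6Y expression plasmid (gdf6Y, n = 5) or an expression plasmid for a gdf6Y mutant variant with a short in-frame deletion in the prodomain (del9, n = 5). Gdf6Y, a TGF-beta family growth factor gene, comes from the killifish Nothobranchius furzeri, and its transcript is not a row of the mouse table, so that its level could not be checked. All groups share the cell line, the transfection reagent and the time, the transfected share of the cells is not known, and the labels do not say how the replicate wells relate to separate cultures. In such bulk samples, more cells that express a gene and more of its RNA per cell cannot be told apart. The p-values therefore speak only for these samples, whose spread may be technical.

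Ribosomes are built in the nucleolus, where RNA polymerase I transcribes a long precursor that is cleaved, trimmed and chemically modified while ribosomal proteins join it. Box C/D snoRNPs methylate the RNA and box H/ACA snoRNPs turn uridine into pseudouridine, and separate sets of assembly factors, helicases and GTPases shape the small and the large subunit. Myc is known to bind and raise many of these genes, and growing cells carry much of their messenger RNA.

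Library totals ran from 21486850 to 26444903 counts. Every member had at least 1011 counts in every library. Counting error alone, relative to the mean count, was 0.394% for Ncl and 2.87% for Wdr74, the members with the most and the fewest counts. Of 11 Sertoli cell markers, Gata4 (831 ± 6.04 normalized counts in EV) and Kitl (707 ± 19.6, SD, n = 6) were well counted, and Dhh, Sox9 and Inha were low. Amh (5.49 ± 1.41 in EV) and Nr5a1 (1.15 ± 0.718 in EV) were very low. Fshr and Cldn11 had at most 1 count in any library, and Wt1 and Dmrt1 had none. Gata4 fell in gdf6Y against EV (log2 fold change -0.20 ± 0.041, SE, adjusted p = 1.00e-04, edgeR). Normalized counts below are counts scaled by TMM library size, and errors of fold changes are standard errors. A gene is called where its p from the quasi-likelihood test of edgeR, Benjamini-Hochberg adjusted over all genes tested, is below 0.05. Intervals of percent changes are 95% intervals from the standard error. That standard error can differ from the spread of a gene between libraries. In del9 against EV it was 0.033 for both Utp14a and Polr1b, whose coefficients of variation in EV were 3.15% and 7.80%. Where a gene varies more than others of similar count, the interval may be too narrow and the p-value too small. Positions of genes are in GRCm39.

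The promoters of 4 members are shown for what they hold in capitals, the letters of 2 motifs searched on both strands, CACGTG (the E-box that Myc binds with Max, the same on both strands) and CCGGAA (an ETS core, TTCCGG on the other strand). Each runs from 250 bases before to 50 bases after a RefSeq start in GRCm38.p6. Rrp9 and Ebna1bp2 had the largest fold changes of all members, Nop2 holds both motifs, and Polr1a, which was lower in gdf6Y, holds neither. The windows lie at chr4:118620549-118620848 (plus strand), chr9:106477059-106477358 (plus strand), chr6:125131633-125131932 (plus strand) and chr6:71908803-71909102 (plus strand).
Ebna1bp2: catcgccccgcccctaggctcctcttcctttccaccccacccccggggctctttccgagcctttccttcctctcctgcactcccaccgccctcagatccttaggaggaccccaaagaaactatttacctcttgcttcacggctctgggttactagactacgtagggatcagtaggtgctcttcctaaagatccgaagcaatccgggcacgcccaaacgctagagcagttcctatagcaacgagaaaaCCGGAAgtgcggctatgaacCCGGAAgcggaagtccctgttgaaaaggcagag
Rrp9: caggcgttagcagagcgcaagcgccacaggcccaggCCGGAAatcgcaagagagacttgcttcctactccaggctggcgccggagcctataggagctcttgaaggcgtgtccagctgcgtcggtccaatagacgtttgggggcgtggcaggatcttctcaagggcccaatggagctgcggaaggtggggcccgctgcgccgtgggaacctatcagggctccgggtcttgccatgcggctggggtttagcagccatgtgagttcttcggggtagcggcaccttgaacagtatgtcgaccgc
Nop2: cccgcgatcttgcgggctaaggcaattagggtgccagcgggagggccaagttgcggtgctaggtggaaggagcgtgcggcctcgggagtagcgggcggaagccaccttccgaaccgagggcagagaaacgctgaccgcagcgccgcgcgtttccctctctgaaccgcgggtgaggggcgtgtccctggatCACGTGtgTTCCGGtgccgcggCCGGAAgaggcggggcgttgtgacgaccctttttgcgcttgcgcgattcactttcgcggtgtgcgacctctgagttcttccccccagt
Polr1a: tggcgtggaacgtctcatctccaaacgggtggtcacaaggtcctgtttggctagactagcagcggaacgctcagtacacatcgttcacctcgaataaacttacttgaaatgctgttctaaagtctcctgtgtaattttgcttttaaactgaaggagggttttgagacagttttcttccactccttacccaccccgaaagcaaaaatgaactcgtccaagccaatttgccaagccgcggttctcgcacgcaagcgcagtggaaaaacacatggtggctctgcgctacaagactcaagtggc
Of the 38 members with a window, 20 (52.6%) held CCGGAA, against 16.7% of 27025 genes with a window and 34.6% of the 3817 genes counted at least as highly as the lowest member. CACGTG stood in 7 (18.4%), against 8.09% and 12.7%. These were Ltv1, Nop2, Pes1, Tsr1, Utp20, Utp4 and Wdr43. Of these, Utp20 was called lower in gdf6Y against EV, as Polr1a was. Nop16, Mrto4, Nop56 and Ncl, called higher in del9 against EV, hold neither motif. No window was given for Gnl2, Rrs1, Fbl, Bop1, Myc, Rrp12 and Npm1. A match describes the letters in the window and is not evidence that a factor binds there.

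In EV, the levels per length covered a wide range. Npm1 (nucleophosmin, an abundant nucleolar chaperone) stood first at 1202 ± 43.4 CPM per kb of its canonical transcript, and Ncl (nucleolin, which binds nascent pre-ribosomal RNA) second at 304 ± 8.28 CPM per kb (SD, n = 6). Nop56, Nolc1 and Nhp2 followed at 127 ± 6.72, 121 ± 5.03 and 121 ± 4.62 CPM per kb, and their ranges over libraries overlapped. Myc stood at rank 14 (61.0 ± 1.70 CPM per kb) and Ebna1bp2 at rank 40 (17.4 ± 0.590 CPM per kb). The lowest were Polr1b (11.0 ± 0.857), Utp15 (11.0 ± 0.523) and Wdr12 (8.78 ± 0.319 CPM per kb). In 34 of the 44 pairs of neighbours in this order, the libraries overlapped. The order depends on the transcript chosen for the length, which was 10012 bases for Wdr12 and 6093 bases for Ebna1bp2.

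The first question was whether the genes differed between cells given the mutant variant and cells given the empty vector, since both served as controls for gdf6Y. In del9, 35 of the 45 members were called higher than in EV and 0 lower, and the median log2 fold change was 0.12. Over all 26226 genes tested, 4.82% were called higher and 4.43% lower, with a median of 0.01. Members are highly counted genes, and of the 4809 genes counted at least as highly as the lowest member 18.0% were called higher, with a median of 0.02. All 45 members except Polr1a had an estimate above 0. For 10 members every del9 library lay above every EV library, which held for 2.17% of all genes tested. The called differences were small, from 0.09 to 0.23 on the log2 scale.

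**Figure D1:**
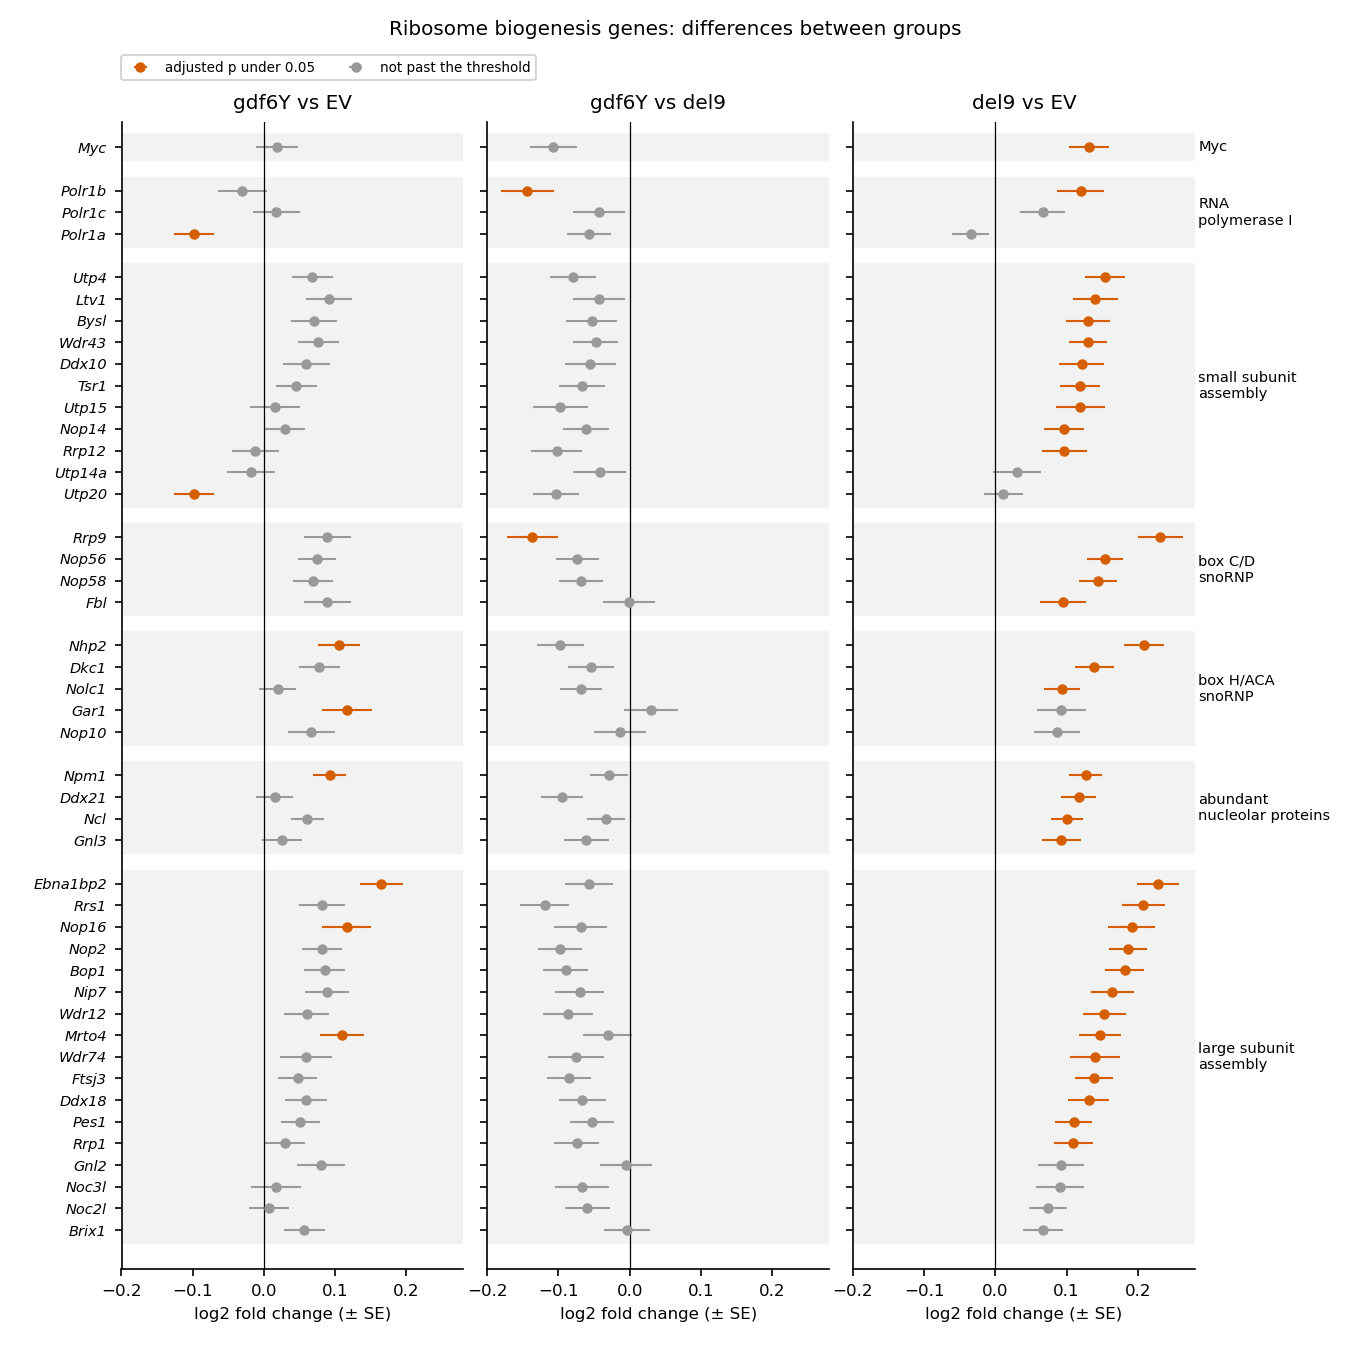
Log2 fold changes (x axis) of the 45 genes with their standard errors in the 3 comparisons, grouped by role, with genes called at an adjusted p below 0.05 in orange and the others in grey. In del9 vs EV 35 genes are called higher, in gdf6Y vs EV 6 are called higher and 2 lower, and in gdf6Y vs del9 2 are called lower.

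The large subunit assembly factors gave 13 of the 35 calls, out of 17 members. Ebna1bp2, an assembly factor that binds the precursor of the large subunit (chr4:118477794-118492185), had normalized counts of 2493 to 2707 in EV (median 2611). The del9 libraries held 2929, 3113, 3171, 2872 and 3171, and all of them lay above all EV libraries. The difference was 0.23 ± 0.029 on the log2 scale, or 17.1% (95% interval 12.6 to 21.9%), with an adjusted p of 2.38e-12 in edgeR's quasi-likelihood test. Rrs1, which helps to bring the 5S RNA particle into the large subunit, had 2109 to 2387 normalized counts in EV (median 2217) and 2297, 2776, 2626, 2433 and 2730 in del9. It rose by 0.21 ± 0.030 (adjusted p = 1.33e-09, edgeR), with del9 replicate 1 inside the EV range. Nop2, a methyltransferase of large subunit RNA with both motifs in its promoter window above, had 5194 to 5910 in EV (median 5589) and 5894, 6349, 6649, 6022 and 6610 in del9. Its rise was 0.19 ± 0.026 (adjusted p = 4.71e-10, edgeR), and again replicate 1 alone of the del9 libraries fell within the range of EV. Bop1, which forms a complex with Pes1 and Wdr12, had 4021 to 4408 normalized counts in EV (median 4354) and 4428, 4819, 5184, 4626 and 5057 in del9. Here the groups did not overlap, and the difference was 0.18 ± 0.027 (adjusted p = 5.51e-09, edgeR). The other members of that complex rose as well, Wdr12 by 0.15 and Pes1 by 0.11, both without overlap of the groups. The further large subunit factors called were Nop16 (0.19), Nip7 (0.16), Mrto4 (0.15), Wdr74 (0.14), Ftsj3 (0.14), Ddx18 (0.13) and Rrp1 (0.11). Gnl2, Noc2l, Noc3l and Brix1 were not called, with estimates of 0.07 to 0.09.

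All 4 box C/D snoRNP genes were called higher in del9 than in EV. Rrp9, a protein of the snoRNP that guides the first cleavages of the precursor (chr9:106353162-106362623), had 1646 to 1891 normalized counts in EV (median 1735). In del9 it had 1918, 2135, 2118, 1918 and 2183, all above the highest EV library. It had the largest fold change of the members, 0.23 ± 0.032 or 17.4% (95% interval 12.5 to 22.6%, adjusted p = 6.93e-11, edgeR's quasi-likelihood test). The core proteins Nop56 and Nop58 rose by 0.15 and 0.14. Fbl (fibrillarin, the methyltransferase of these particles) had 1596 to 1756 normalized counts in EV (median 1654) and 1768, 1846, 1845, 1689 and 1770 in del9, a difference of 0.10 ± 0.032 (adjusted p = 0.0382, edgeR). The call of Fbl was lost in 9 of 10 other settings and when any of 7 libraries was left out (EV replicates 2, 3, 4 and 6 and del9 replicates 2, 3 and 5).

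Among the box H/ACA snoRNP genes 3 of 5 were called. Nhp2, a core protein of these particles, had 2944 to 3275 normalized counts in EV (median 3153) and 3273, 3658, 3877, 3463 and 3846 in del9. It rose by 0.21 ± 0.028 or 15.6% (adjusted p = 5.78e-11, edgeR), with only del9 replicate 1 within the range of EV. Dkc1, the pseudouridine synthase, rose by 0.14 and Nolc1, a chaperone of snoRNPs, by 0.09. Gar1 and Nop10 were not called, with estimates of 0.09 each. Of the abundant nucleolar proteins all 4 were called. Npm1 had 47472 to 51722 normalized counts in EV (median 48831) and 53231, 54702, 54023, 52748 and 54008 in del9, without overlap (0.13 ± 0.023, adjusted p = 3.07e-06, edgeR). Ncl had 59609 to 64070 in EV (median 61998) and 65157, 68748, 68492, 64397 and 65583 in del9, also without overlap (0.10 ± 0.023, adjusted p = 3.72e-04, edgeR). The helicase Ddx21 rose by 0.12 and the GTPase Gnl3 (nucleostemin) by 0.09.

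The small subunit factors were called in 9 of 11 cases. Utp4, a subunit of the early complex that joins transcription to processing, rose by 0.15 and its partners Wdr43 and Utp15 by 0.13 and 0.12. The late factors Ltv1 (0.14), Bysl (0.13), Tsr1 (0.12) and Rrp12 (0.10), the helicase Ddx10 (0.12) and Nop14 (0.10) rose too. Rrp12 lost its call without any of 7 libraries (EV replicates 1, 3, 4 and 6 and del9 replicates 2, 3 and 5). Utp14a and Utp20 were not called, at 0.03 and 0.01.

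Of the RNA polymerase I subunits among the members, 1 of 3 was called. Polr1b, the second largest subunit, had 1386 to 1687 normalized counts in EV (median 1572) and 1576, 1613, 1868, 1556 and 1771 in del9. It was called higher by 0.12 ± 0.033 (adjusted p = 0.00549, edgeR), yet only del9 replicates 3 and 5 lay above the EV range, and the call was lost without EV replicate 1 or 4 or del9 replicate 3 or 5. Polr1a, the largest subunit, had 5629 to 6125 in EV (median 5872) and 5282, 6054, 5887, 5545 and 5855 in del9. Its estimate was -0.03 ± 0.027 (-2.39%, 95% interval -5.84 to 1.20%). Polr1c, a subunit shared with RNA polymerase III, was not called at 0.07. Of 5 further subunits of this polymerase, Polr1e (0.24), Polr1g (0.24), Polr1h (0.15) and Polr1d (0.14) were called higher and Polr1f (0.06) was not. Myc itself had 3459 to 3702 normalized counts in EV (median 3575) and 3629, 4097, 4069, 3760 and 3963 in del9. It rose by 0.13 ± 0.028 or 9.56% (adjusted p = 1.17e-04, edgeR), with del9 replicate 1 within the EV range.

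Of these 35 calls, 29 held whichever of the 11 libraries was left out, and 25 held in addition in all 10 other settings. Besides Fbl, Rrp12 and Polr1b, Nop14 lost its call without del9 replicate 2, Utp15 without EV replicate 4 or del9 replicate 2, and Gnl3 without EV replicate 1 or del9 replicate 5. Fewer members were called with DESeq2 (31), with a stricter count filter (29) and with the dispersion estimate of edgeR 4 (33).

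**Figure D2:**
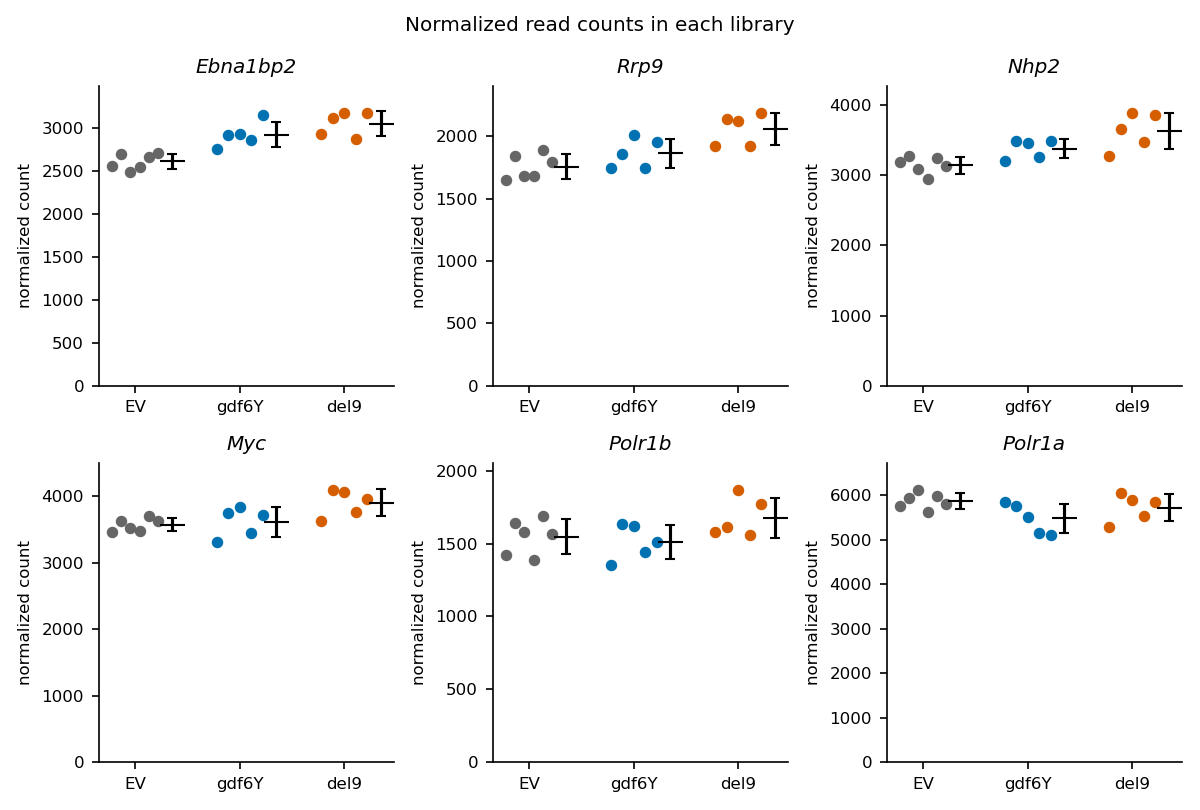
Normalized read counts (y axis, from 0) of Ebna1bp2, Rrp9, Nhp2, Myc, Polr1b and Polr1a, with a point for each library and the mean ± SD of each group in black. For Ebna1bp2 and Rrp9 all del9 libraries lie above all EV libraries, and for Polr1a the groups overlap.

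The second comparison set gdf6Y against the empty vector. It shares its EV libraries with the comparison above, so the estimates of both are not independent. Of the 45 members 6 were called higher and 2 lower in gdf6Y, with a median of 0.06. Over the 26316 genes tested 1.70% were called higher and 3.38% lower (median 0.00), and 6.65% of the genes counted at least as highly as the lowest member were called higher. An estimate above 0 was found for 40 members. The groups did not overlap for 1 member, Ebna1bp2, and gdf6Y lay wholly above EV for 1.26% of all genes tested.

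Ebna1bp2 had 2760, 2922, 2928, 2861 and 3147 normalized counts in gdf6Y, all above the highest EV value of 2707. It rose by 0.17 ± 0.030 or 12.1% (95% interval 7.61 to 16.8%, adjusted p = 7.23e-06, edgeR's quasi-likelihood test). This call held without each library in turn and in all 10 other settings, with log2 fold changes from 0.14 to 0.21. It was the only called member of which that was true. Npm1 had 49848, 52893, 52003, 52447 and 55273 in gdf6Y and rose by 0.09 ± 0.023 (adjusted p = 0.00327, edgeR). The call was lost without gdf6Y replicate 5, the highest library. Nhp2 had 3199, 3488, 3456, 3250 and 3477 in gdf6Y, of which replicates 1 and 4 lay within the EV range. It rose by 0.11 ± 0.030 (adjusted p = 0.0117, edgeR), and lost its call without EV replicate 4 or gdf6Y replicate 3 or 5. Mrto4, a large subunit factor related to a ribosomal stalk protein, had 2316 to 2460 in EV (median 2364) and 2414, 2608, 2469, 2525 and 2797 in gdf6Y. Its rise of 0.11 ± 0.031 (adjusted p = 0.0121, edgeR) was also lost without gdf6Y replicate 5. Nop16 and Gar1 rose by 0.12 each, and lost their calls without any of 5 and 4 libraries.

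The 2 members called lower, out of 45 tested, are a share close to the 3.38% of all genes called lower in gdf6Y against EV. No such share is given for the highly counted genes. This count is therefore no result about the members, and the values below describe the 2 genes only. Both encode long transcripts. Polr1a (chr6:71886021-71961919) had 5848, 5762, 5517, 5165 and 5117 normalized counts in gdf6Y and fell by 0.10 ± 0.028 on the log2 scale against EV (adjusted p = 0.0117, edgeR). Replicates 4 and 5 lay far below the lowest EV value of 5629, while replicates 1 and 2 lay within the EV range. Utp20, a large scaffold protein of the small subunit precursor, had 4607 to 5057 in EV (median 4809) and 4719, 4723, 4513, 4289 and 4269 in gdf6Y. It fell by 0.10 ± 0.028 (adjusted p = 0.0152, edgeR), with the same pair of libraries lowest. The canonical transcripts of Polr1a and Utp20 have 9240 and 8854 bases, against a median of 2795 bases over the members. Wdr12 (10012 bases), Nop58 (9561) and Ncl (8288) are of similar length. Their estimates in gdf6Y against EV were above 0, at 0.06, 0.07 and 0.06, and were not called.

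The other genes followed throughout were not called in gdf6Y against EV. Ncl had 61865, 66170, 65580, 63991 and 66015 normalized counts in gdf6Y (0.06 ± 0.023, adjusted p = 0.110, edgeR), and Fbl had 1728, 1766, 1823, 1757 and 1808 (0.09 ± 0.033, adjusted p = 0.106). Myc had 3316, 3743, 3839, 3448 and 3712, with an estimate of 0.02 ± 0.029 (1.29%, 95% interval -2.65 to 5.38%). The sign of that estimate for Myc depended on the length correction and on gdf6Y replicate 3. By role, the calls were 3 of 17 large subunit factors, 2 of 5 box H/ACA genes, 1 of 4 abundant nucleolar proteins and 0 of 4 box C/D genes higher, and 1 of 11 small subunit factors and 1 of 3 polymerase subunits lower.

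The counts of calls in this comparison rested on single libraries. The number called higher was 1 without gdf6Y replicate 5, 3 without EV replicate 4, 12 and 14 without EV replicates 2 and 5, 13 without gdf6Y replicate 4, and 20 without gdf6Y replicate 1. The number called lower was 0 without EV replicate 3, gdf6Y replicate 4 or gdf6Y replicate 5, and 1 without EV replicate 5. With the replicate number fitted as a block, 17 were called higher and 2 lower. The block also called more of all genes tested, 3.12% higher and 4.71% lower, against 1.70% and 3.38% without it. Whether the replicate numbers pair the libraries is not known from the labels.

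The third comparison, gdf6Y against the mutant variant, shares its libraries with both others. Of the members 0 were called higher and 2 lower in gdf6Y, with a median of -0.07. Of 25878 genes tested 0.599% were called higher and 0.410% lower (median 0.00), and 1.58% of the genes counted at least as highly as the lowest member were called lower (median -0.01). For 44 members the estimate was below 0, and the groups overlapped for every member. Polr1b (chr2:128942903-128970214) had 1355, 1632, 1619, 1440 and 1513 normalized counts in gdf6Y against 1576, 1613, 1868, 1556 and 1771 in del9. It was lower by -0.14 ± 0.037 (-9.49%, 95% interval -14.0 to -4.78%, adjusted p = 0.0154, edgeR's quasi-likelihood test). Rrp9 had 1748, 1854, 2007, 1748 and 1953 in gdf6Y, of which replicates 3 and 5 lay within the del9 range (-0.14 ± 0.036, -9.04%, adjusted p = 0.0175, edgeR). Rrs1 came next at -0.12, with an adjusted p of 0.0517, and Myc at -0.11 ± 0.033 with an adjusted p of 0.0788.

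The remaining fixed genes were not called between gdf6Y and del9. Ebna1bp2 differed by -0.06 ± 0.034 (-3.85%, 95% interval -8.13 to 0.623%), Npm1 by -0.03 ± 0.027, Ncl by -0.03 ± 0.027 and Polr1a by -0.06 ± 0.031. The estimate for Fbl was -0.0272% (95% interval -4.86 to 5.06%), and its sign turned in several settings.

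Both calls were lost with DESeq2, with the stricter filter and with the dispersion estimate of edgeR 4 (0 lower each). Of all genes tested these settings called 0.131%, 0.150% and 0.228% lower. The number lower was also 0 without gdf6Y replicate 4, del9 replicate 3 or del9 replicate 5, and 1 without gdf6Y replicate 1 or del9 replicate 2. It was 4 without gdf6Y replicate 3 or 5, 8 without gdf6Y replicate 2 or del9 replicate 4, and 11 without del9 replicate 1. A block on the replicate number gave 13 lower and 0 higher, though the labels do not say that these numbers pair the libraries.

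Summed into a score, the mean over the 45 genes of log2 CPM with a pseudocount of 2, the members stood at 7.09 ± 0.04 in EV (n = 6), 7.14 ± 0.05 in gdf6Y (n = 5) and 7.21 ± 0.06 in del9 (SD, n = 5). The 6 EV libraries scored 7.03 to 7.14 (median 7.08). The gdf6Y libraries scored 7.07, 7.18, 7.17, 7.09 and 7.16, and the del9 libraries 7.13, 7.25, 7.26, 7.16 and 7.24. Del9 replicates 2 to 5 lay above every EV library, and replicate 1 lay below the highest. The differences of the means were 0.12 for del9 against EV, 0.05 for gdf6Y against EV and -0.07 for gdf6Y against del9, or 8.63%, 3.50% and -4.72% of the geometric mean level. No p is given for the score, because its members were not chosen independently of these data.

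**Figure D3:**
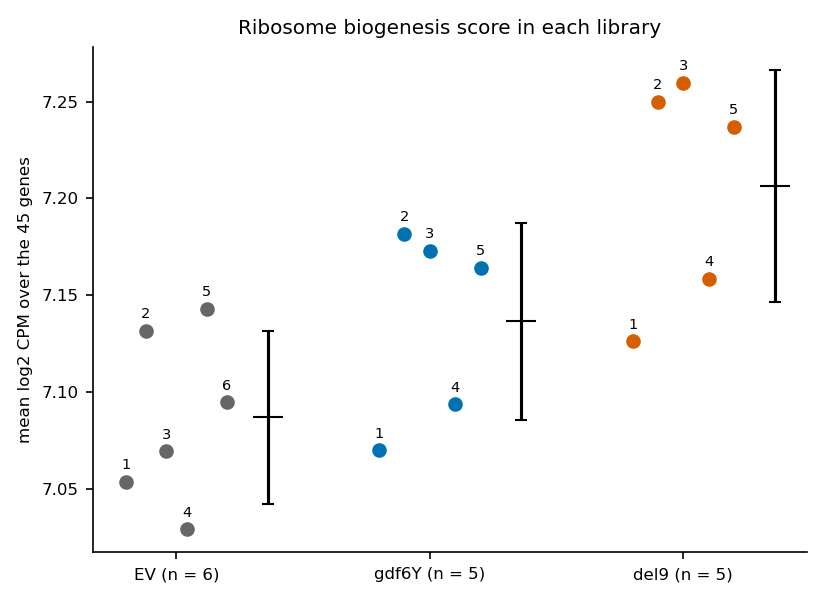
Mean log2 CPM over the 45 genes (y axis, not from 0) in each library, labelled with its replicate number, and the mean ± SD of each group in black. The del9 libraries reach from 7.13 to 7.26 and the EV libraries from 7.03 to 7.14, and in each group replicates 1 and 4 are the lowest.

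Libraries of a group differed among themselves, and the members shared this spread. Between the lowest and the highest library the score spanned 0.11 in EV, 0.11 in gdf6Y and 0.13 in del9. In gdf6Y replicate 1 only 4 of the 45 members lay above their own group mean, and in replicate 4 only 5, against 40, 37 and 35 in replicates 2, 3 and 5. In del9 the corresponding numbers were 2 and 3 in replicates 1 and 4, against 39, 42 and 36. In EV they were 8 and 4 in replicates 1 and 4, 13 in replicate 3, 27 in replicate 6, and 39 and 41 in replicates 2 and 5. Replicates 1 and 4 were thus the libraries with the fewest members above the mean in each group. The members are therefore not independent of each other within a library, and a count of called members is not a count of independent results. These 6 libraries held 24615268 to 26071045 counts. EV replicate 1 and del9 replicate 4 had the largest totals of their groups. The largest total of all, 26444903 counts, belonged to gdf6Y replicate 3, with 37 members above its group mean. Del9 replicate 2 held 26017445 counts, with 39 members above. The part of depth in this pattern was not tested. Single genes varied little, with a median coefficient of variation over members of 3.82% in EV, 4.59% in gdf6Y and 4.96% in del9. The steadiest were Utp14a in del9 (1.07%, below its counting error of 2.55%) and Npm1 in del9 (1.42%), and the most variable was Rrp12 in del9 (9.69%).

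**Figure D4:**
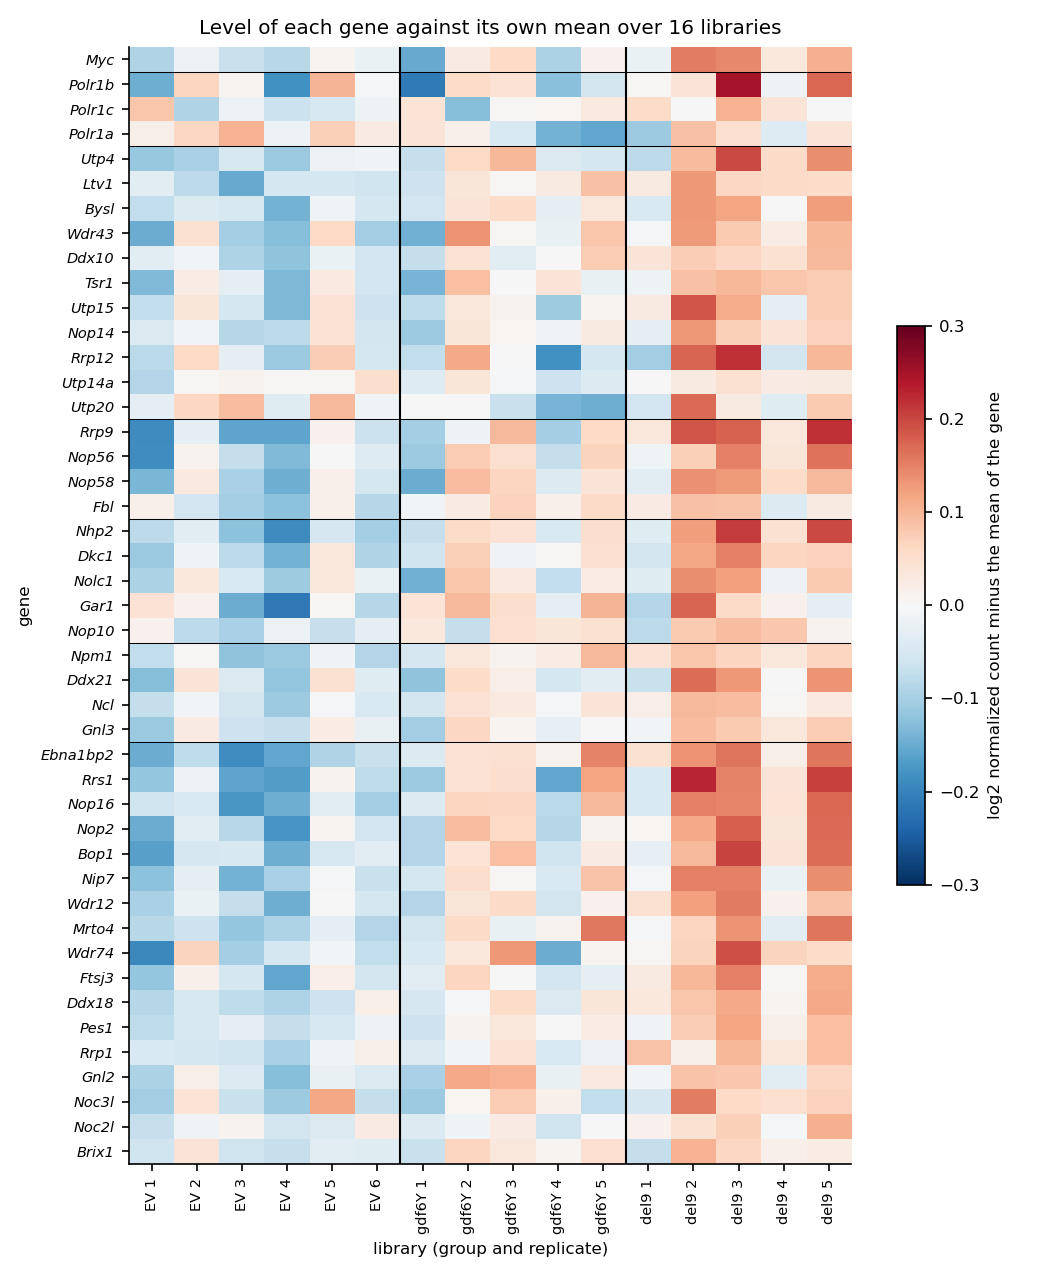
Log2 normalized count of each of the 45 genes (rows, grouped by role) in each of the 16 libraries (columns), as the difference from the mean of the gene over all libraries, with red above and blue below. Most genes are red in del9 replicates 2, 3 and 5 and blue in EV replicates 1, 3 and 4, and in del9 replicates 1 and 4 most are close to the mean.

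Gene length was checked in each comparison. The exonic lengths of the members ran from 1262 to 12954 bases with a median of 4912, against 6152 over all genes whose mean count reached 10. Their canonical transcripts ran from 1054 to 10012 bases with a median of 2795, against 3250. In del9 against EV the 23 members with the shorter canonical transcripts had a median of 0.13 (17 called) and the 22 longer members a median of 0.12 (18 called). Genes counted at least as highly as the lowest member and within the middle range of the members' exonic lengths had a median of 0.04, and 25.0% of these 1758 genes were called higher. With a smooth trend of fold change on exonic length removed, 32 members were called higher in del9 than in EV (median 0.10). With the canonical transcript length 30 were called higher (median 0.11). Of all genes tested these corrections called 3.46% and 3.40% higher. Fbl, Nop14, Rrp1 and Wdr74 lost their calls in both, and 0 members were called lower in either.

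In gdf6Y against EV the 23 members with the shorter canonical transcripts had a median of 0.08 (5 called higher). The 22 longer members had a median of 0.05 (1 called higher). Of the 1758 highly counted genes in the middle range of exonic lengths 7.62% were called higher (median 0.02). The length correction changed which members were called higher more than how many. The median of the members was 0.06 without it, 0.04 with exonic length and 0.05 with canonical length. With exonic length 6 were called higher and with the canonical transcript 5, where 1.73% and 1.61% of all genes tested were. Nhp2, Gar1, Nop16 and Mrto4 lost their calls in both and Npm1 with the canonical transcript. Ncl, Nop58 and Wdr12 gained a call in both. Their canonical transcripts are listed at 8288, 9561 and 10012 bases. Polr1a and Utp20 were no longer called lower, and 0 members were. Ebna1bp2 was called higher with either length. Against del9, the correction left Polr1b and Rrp9 lower and added Rrs1 with either length and Myc with the canonical transcript. Of all genes tested 0.402% were called lower with exonic and 0.417% with canonical length. There the members with shorter and longer canonical transcripts had medians of -0.06 and -0.07 without correction.

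**Figure D5:**
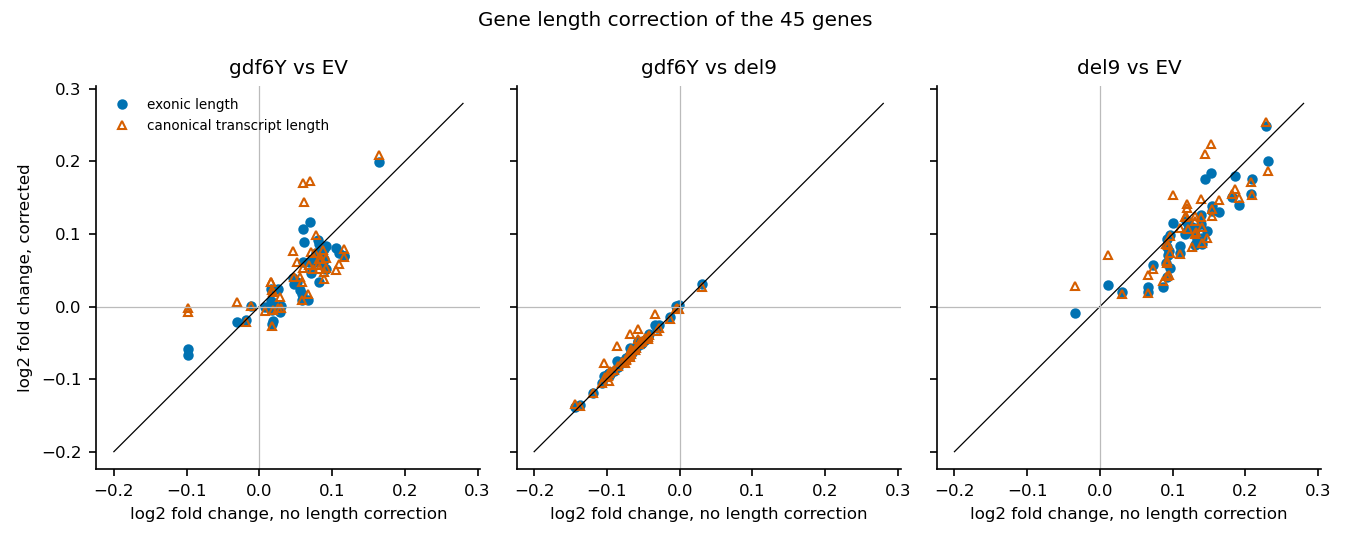
Log2 fold changes of the 45 genes without (x axis) and with (y axis) correction for exonic length (blue circles) or canonical transcript length (orange triangles) in the 3 comparisons, with the line of equal values in black. In gdf6Y vs EV the points at the lower left, Polr1a and Utp20, move towards 0, and in gdf6Y vs del9 the points stay close to the line.

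Members with and without the promoter motifs were set side by side. In del9 against EV the 20 members with CCGGAA had a median of 0.13 (15 called higher) and the 18 without it 0.11 (14 called). The 7 members with CACGTG had a median of 0.13 (6 called) and the 31 without it 0.12 (23 called).

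A list of 117 further ribosome biogenesis factors was read in the same fits, and all were tested. In del9 against EV 69 were called higher and 1 lower, with a median of 0.11, beside the 4.82% of all genes tested and 18.0% of the highly counted genes given above. The smallest adjusted p-values belonged to Nol12 (0.21 ± 0.034), Polr1e, a subunit of RNA polymerase I (0.24 ± 0.041), the methyltransferase Emg1 (0.16 ± 0.028), the exosome subunit Exosc7 (0.20 ± 0.035) and the endonuclease Nob1 (0.18 ± 0.033). In gdf6Y against EV 8 were called higher and 2 lower, with a median of 0.05. Of all genes tested 1.70% were called higher and 3.38% lower. The 8 called higher are a share close to the 6.65% of highly counted genes, so that this count is not read as a result about these factors. That 6.65% covers genes counted at least as highly as the lowest member, a limit that was not set for the factors. Among all factors called in gdf6Y against EV, the smallest adjusted p belonged to Mdn1, which was lower (-0.33 ± 0.033). Next came Emg1 (0.11 ± 0.029), Ngdn (0.14 ± 0.040) and the exosome subunits Exosc9 (0.11 ± 0.034) and Exosc2 (0.11 ± 0.033), all higher. In gdf6Y against del9 0 were higher and 1, Mdn1, was lower (-0.23 ± 0.034), with a median of -0.05, where 0.410% of all genes were called lower.

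Mdn1, a giant ATPase that remodels the precursor of the large subunit, was also the 1 factor called lower in del9 against EV (-0.09 ± 0.029, adjusted p = 0.0269, edgeR's quasi-likelihood test). Its values depended on length and on the filter. With the canonical transcript length corrected for, the estimates were -0.14, -0.17 and 0.03 in gdf6Y vs EV, gdf6Y vs del9 and del9 vs EV, the last with the opposite sign. With the stricter filter its standard error in gdf6Y vs del9 was 0.11 in place of 0.034 and the adjusted p was 0.499. In gdf6Y vs EV the adjusted p was 0.0210 with that filter and 0.0557 with DESeq2.

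Myc has partners and relatives that share or oppose its binding, of which 10 of 11 were tested (Mycl had no count). Of their 6 calls 4 were lost with the stricter filter and with DESeq2. In del9 against EV Mycn had 92.7 to 118 normalized counts in EV (111 ± 10.3, SD) and 102 to 161 in del9 (133 ± 21.5), so that the groups overlapped (0.26 ± 0.089, adjusted p = 0.0374, edgeR). Mxd4, a Max partner that represses, had 437 to 702 in EV (577 ± 105) and 417 to 578 in del9 (492 ± 72.8), a difference of -0.23 ± 0.047 with an adjusted p of 4.89e-05 in edgeR's test. Mga, another Max partner, had 2376 to 2685 in EV (2532 ± 123) and 2232 to 2659 in del9 (2356 ± 179), a difference of -0.10 ± 0.030 (adjusted p = 0.0122, edgeR). All 3 calls were lost with the stricter filter, under which the standard error of Mxd4 was 0.11 (adjusted p = 0.129, edgeR), and with DESeq2.

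In gdf6Y against EV Mlxip, a partner of Mlx, had 1862 to 2024 normalized counts in EV and 1667 to 1823 in gdf6Y, without overlap, and fell by 0.16 ± 0.033 (adjusted p = 1.15e-04, edgeR). Mga had 2034 to 2529 in gdf6Y, overlapping with EV, and fell by 0.20 ± 0.032 (adjusted p = 1.76e-07, edgeR). Both calls held in 9 of 10 other settings and were lost with the canonical transcript length corrected for, where Mlxip stood at -0.09 (adjusted p = 0.0784, edgeR) and Mga at -0.04 (adjusted p = 0.610, edgeR). In gdf6Y against del9 Mycn had 89.7 to 118 in gdf6Y and differed by -0.34 ± 0.095 (adjusted p = 0.0330, edgeR), which was lost with the stricter filter (adjusted p = 0.290) and with DESeq2. Max itself was not called in any comparison, with estimates from -0.04 to 0.09.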

How the data were processed

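RNA was isolated from transfected TM4 cells, and poly(A)-selected stranded libraries with unique molecular identifiers were sequenced. Per the labels and the study's methods, the authors aligned the reads with STAR (2.7.10a) to GRCm39, collapsed PCR duplicates by their identifiers with UMI-tools and counted uniquely mapped reads per gene and strand with featureCounts (2.0.3). The deposited values are raw counts of 56748 genes without normalization. Reads that overlap several genes were not counted, and 4 members (Ncl, Gnl3, Nop56 and Nop58) share exonic bases with another gene on the same strand, so that their counts may be too low.

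Symbols, positions and lengths were taken from GENCODE M39 of GRCm39, which matched 56017 identifiers and is not the release used for counting. A gene entered a comparison if any of its samples had at least 1 count, libraries were scaled with TMM, and 2 groups at a time were compared with edgeR (4.0.16, R 4.3.3), quasi-likelihood test, dispersion estimated in the legacy mode, and Benjamini-Hochberg adjustment over all genes tested. Scripts were tested on simulated data. The study used DESeq2, which was run here as an alternative (1.42.0). Other alternatives were DESeq2's size factors, total counts, a stricter count filter (filterByExpr), a joint model of all 3 groups, a block on the replicate number, length corrections by a lowess trend (span 0.5), and leaving out each library. The canonical-transcript length correction and the edgeR 4 dispersion were added after the data had been seen. Promoter windows were RefSeq's, in GRCm38.p6, and were never combined with GRCm39 positions.

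The 45 members and the other lists were chosen with earlier results of these data known. Named were Ebna1bp2, Myc, Polr1a, Ncl, Npm1 and Fbl in every comparison, every called member, values by library for the 6 called members with the smallest adjusted p in each comparison, the 5 called further factors with the smallest adjusted p, and every called relative of Myc. Gene names of members not called, of the further polymerase subunits, and of those discussed for the settings or the order of levels, were added after their values were seen. Depth was 21486850 to 26444903 counts per library.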

Additional observations from a re-analysis of the deposited data

Results flagged for a closer look

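Among the 138 sets of values looked at (each member and the score in each group), 5 held a library whose gap to the nearest other library took more of the group's range than Dixon's 95% critical value. Chance flags about 1 in 20 sets, or 6.9 here, so 5 is no more than chance gives. Nop10 was low in gdf6Y replicate 2 (1627 normalized counts against 1748 to 1770 in the other libraries, a gap of 0.846 of the range). Polr1c was low in the same library (1700 against 1863 to 1912, 0.769 of the range). Tsr1 was low in del9 replicate 1 (3995 against 4257 to 4326, 0.790). Brix1 was high in EV replicate 2 (4063 against 3765 to 3859, 0.685), and Utp14a was low in EV replicate 1 (1449 against 1543 to 1597, 0.637). Without del9 replicate 1 the call of Tsr1 in del9 against EV held.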

How the results depend on the processing

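In del9 against EV the number of members called higher kept within 1.5 times of 35 in every setting, from 31 to 41 when a library was left out (score difference 0.11 to 0.14), and for the further factors from 49 to 77, with 0 to 1 lower. A median in place of the mean over members gave a score difference of 0.1768. The single factor called lower, Mdn1, was not called (0) with DESeq2, the stricter filter, all groups in one model, either length correction, the replicate block with length correction, or the edgeR 4 dispersion. In gdf6Y against EV, leaving out a library gave 1 to 20 members higher and 0 to 2 lower, 1 to 31 factors higher and 1 to 3 lower, and score differences of 0.04 to 0.07. Members called lower numbered 0 with DESeq2, the stricter filter and both length corrections. Factors called higher numbered 5 with all groups in one model and with canonical length and 4 with the edgeR 4 dispersion, and factors called lower 0 with DESeq2 and 1 with the stricter filter, one model, both length corrections and the edgeR 4 dispersion. In gdf6Y against del9, leaving out a library gave 0 to 11 members and 1 to 7 factors lower, 0 higher, and score differences of -0.09 to -0.05. Members lower numbered 0 with DESeq2, the stricter filter and the edgeR 4 dispersion, 1 with one model and 4 with canonical length, and factors lower 0 with DESeq2 and the stricter filter.

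Equal replicate numbers in the labels were also fitted as a replicate block. It gave 17 members higher and 2 lower in gdf6Y against EV. The numbers were 0 and 13 in gdf6Y against del9, and 38 and 0 in del9 against EV. For the further factors they were 26 and 3, 0 and 12, and 75 and 1. Of all genes tested the block called 3.12% higher and 4.71% lower, 1.12% and 1.44%, and 6.07% and 5.35% in these comparisons. With the length correction added, the block gave 12 higher and 1 lower, 13 lower, and for the factors 19 higher in gdf6Y against EV and 11 lower in gdf6Y against del9. Whether the numbers pair the libraries is not given in the labels. Over all genes the correlations of same-numbered libraries ran from -0.0029 to 0.19, 0.09 to 0.16 and -0.04 to 0.16 in the 3 comparisons, where differently numbered libraries averaged -0.04 to -0.02, -0.04 to -0.02 and -0.04 to 0.05. In both comparisons of gdf6Y every same-numbered pair lay above that average, yet not every pair passed 0.1 and not every library correlated best with its own number. Within each number from 1 to 5 the score was lowest in EV and highest in del9, with del9 minus EV from 0.07 to 0.19 and gdf6Y minus EV from 0.02 to 0.10.

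Small estimates changed sign. Myc in gdf6Y against EV was -0.0198 with exonic length, -0.0176 with the block added, -0.0044 with canonical length and -0.0038 to 0.0527 without single libraries. Fbl in gdf6Y against del9 was 0.0020 with DESeq2 and with its size factors, 0.0081 with total counts, 0.0024 with the stricter filter, 0.0023 with exonic length, 0.0026 with the block added, and -0.0246 to 0.0097 without single libraries. Polr1a in del9 against EV was 0.0285 with canonical length. The cause of these changes was not tested. The median standard error of the members in del9 against EV was 0.028, against 0.032 with the stricter filter and 0.036 with DESeq2, and the smallest called difference was 0.09.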
